A study of Macaca nemestrina with 58 samples.

Results

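Cell division genes, the genes that copy DNA and drive cells through mitosis, were followed in pinch biopsies of the vagina from pig-tailed macaques (Macaca nemestrina) on hormonal contraceptives. A gene was included when it was among 44 listed division genes and at least 1 probe set of the array carried its symbol alone. Of the 44 genes, 28 met this rule, out of 14132 genes named in that way, and the probe set with the highest mean stood for the gene. Of the 28 genes, 26 passed a filter on low brightness and were tested beside 11199 genes in all. The kinase MELK and the kinetochore motor CENPE were under the filter, and the other 16 listed genes were not analysed here: MCM6, MCM7, RRM2, BIRC5, PLK1, BUB1, BUB1B, TTK, CDC20, UBE2C, NDC80, KIF11, KIF20A, NUSAP1, PRC1 and HMMR.

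The study profiled 57 biopsies of 15 animals on 58 arrays whose probes were designed for another macaque, the rhesus monkey. The first 9 animals were injected with DMPA, the progestin medroxyprogesterone acetate in depot form, and sampled at times labelled 1D4 (8 samples) and 2D2 (9 samples), at doses labelled 0.5, 1.5 and 2.5. The other 6 animals are labelled LNG, the arm on a combined oral contraceptive, and were sampled at times labelled 5th (6 samples) and 7th (6 samples), with 3 animals labelled Low and 3 labelled High. Before treatment every animal gave 1 or 2 baseline biopsies, 28 in all: 10 early follicular (Fe), 5 late follicular (Fl), 4 early luteal (Le) and 9 late luteal (Ll). The series text places the treated biopsies 5 weeks after the first oral dose and 2 weeks after the second injection, and the doses carry no unit. The meaning of an added label, A-, on 5 of the LNG samples is not given here. All animals were on a drug after baseline, so effects of the drug, of time and of having been biopsied before cannot be told apart. Ages, strains and genotypes of the animals are not given in the sources used here.

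A dividing cell first loads the MCM helicase onto DNA with the help of CDC6, then copies its genome on the sliding clamp PCNA with nucleotides supplied by enzymes such as ribonucleotide reductase (RRM1) and thymidylate synthase (TYMS). Late in the cycle the transcription factor FOXM1 drives the genes of mitosis, among them B-type cyclins, Aurora kinases, the DNA-untangling enzyme topoisomerase II alpha (TOP2A) and the spindle proteins. In the stratified squamous epithelium of the vagina most division takes place in and just above the basal layer, and it follows ovarian hormones, with estrogen known as a stimulus of its growth.

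Values below are levels or differences on the log2 scale of the deposited array values, so a difference of -1 is a halving. The arrays had medians between 6.07 and 6.25. Genes of the squamous epithelium were well measured at baseline, where the mean of 15 mature squamous genes had a median of 12.60 and the mean of 8 basal keratinocyte genes one of 10.16. A few samples stood apart. The LNG 5th sample of animal BB4800 had a basal keratinocyte mean of 9.08, the lowest of all samples, a fibroblast and smooth muscle mean of 12.69 and the lowest mean level of the 26 division genes, 5.91. The late luteal baselines of PPi2 and BB967 had division gene means of 6.71 and 7.00, whereas the median over the 28 baseline samples was 8.23. Their removal is given beside the results it moves. In biopsies of whole tissue, fewer dividing cells and less RNA per dividing cell cannot be told apart.

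**Figure D1:**
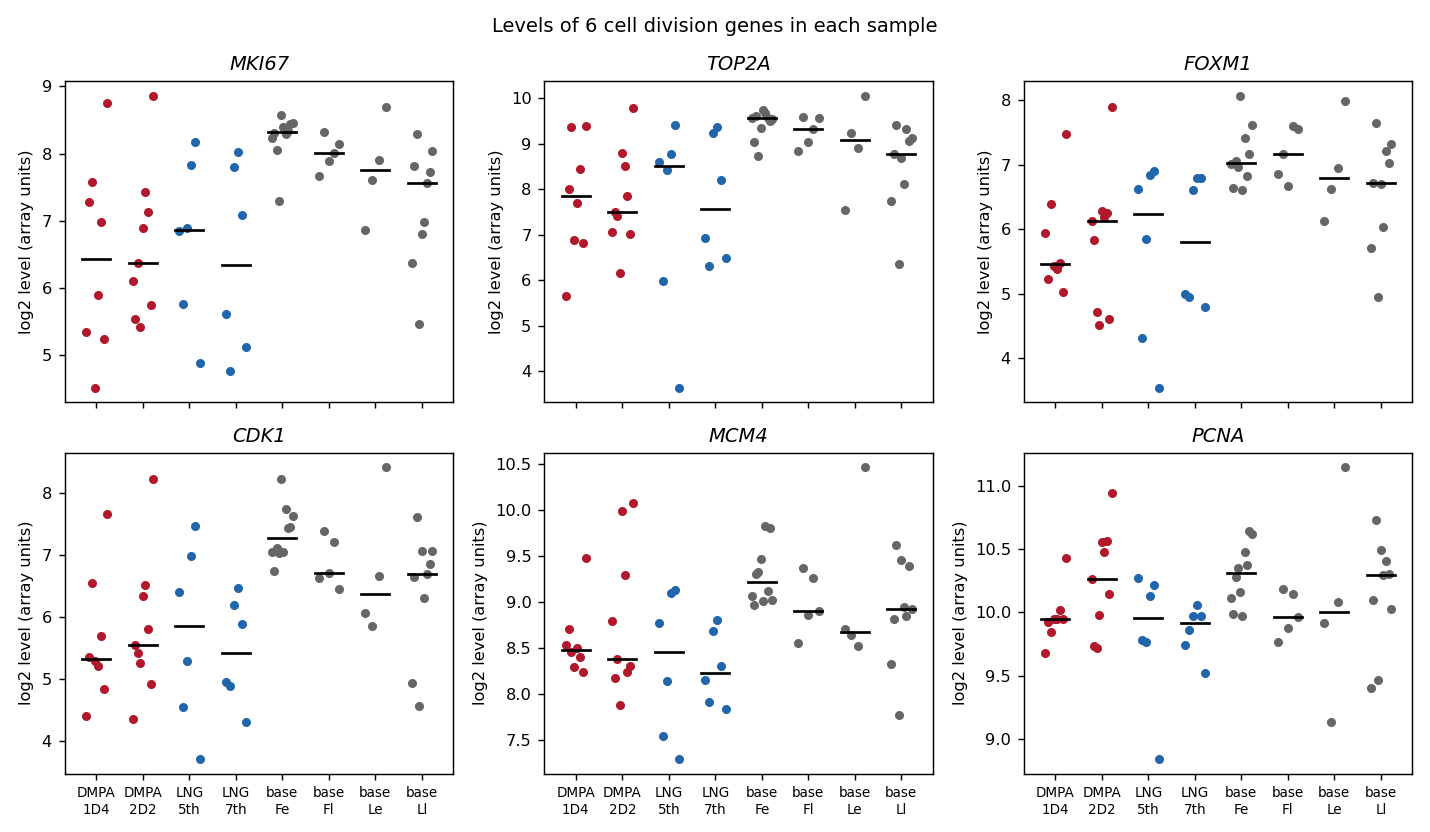
Level (log2 array units, vertical axis) of 6 division genes in each of 57 samples, for DMPA and LNG times and then baseline cycle phases, with 1 point per sample and a line at the median. For MKI67 the DMPA 2D2 samples spread from 5.42 to 8.86, against 7.30 to 8.57 in the early follicular baselines, while PCNA lies between 9.72 and 10.94 at 2D2, inside its baseline range.

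After DMPA at 2D2, genes of late cell cycle and mitosis were lower than in the animals' own baselines, while most genes of DNA replication did not pass the test. In limma with the animal as a block, at an adjusted p under 0.05, 14 of the 26 division genes were lower and 0 higher, whereas 14.1% of all genes tested were lower and 17.2% higher. All 26 estimates were below zero, with a median change of -0.50, beside 0.05 over all genes. With the RNA quality measure of GAPDH as a covariate 0 of the 26 passed and the median was 0.09. Leaving out animals BB0499 or BB981 left 7 genes each, and leaving out BB770 gave 19. The shares of all genes passing in these refits, and in the covariate and leave-out refits below, are not given here. Whether such counts differ from those of other genes is therefore not shown.

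FOXM1, the transcription factor of the late cycle genes, lay between 4.51 and 7.89 in the 9 samples at 2D2 with a median of 6.13, against 4.96 to 8.07 with a median of 7.17 in the 17 baselines of these animals. In 8 of 9 animals it was below the baseline of the same animal, and the ranges overlapped. The fall was -1.20 ± 0.29 (SE), a 2.29-fold difference, with a limma adjusted p of 0.0033. E2F1, a factor that turns on genes for DNA synthesis, lay between 5.85 and 7.28 at 2D2, against 5.54 to 7.41 at baseline, a change of -0.30 ± 0.13 with an adjusted p of 0.084.

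Among cyclins and their partners, 4 of 7 genes fell at 2D2: CCNB1, CCNB2, CDK1 and CDKN3. Cyclin B1 (CCNB1), which with the kinase CDK1 starts mitosis, fell by 1.36 ± 0.35 (adjusted p 0.0046), and cyclin B2 (CCNB2) by 1.47 ± 0.42 (adjusted p 0.0095). CDK1 itself lay between 4.35 and 8.22 with a median of 5.54 at 2D2, against 4.56 to 8.42 with a median of 7.06 at baseline. The lowest baseline value was the late luteal sample of PPi2, and the next was 6.31 (BB108), while 6 of the 9 samples at 2D2 were at or below 5.80. In 8 of 9 animals the level was below baseline, with a fall of 1.19 ± 0.34 (adjusted p 0.0093). CDKN3, a phosphatase that acts on cyclin-dependent kinases, fell by 1.05 ± 0.34 (adjusted p 0.020). The cyclins of earlier stages did not pass at 2D2. CCNA2 had a change of -0.32 ± 0.15 (adjusted p 0.11), with -0.61 ± 0.26 (adjusted p 0.076) in its second probe set, and CCNE2, a cyclin of entry into DNA synthesis, one of -0.39 ± 0.23 (adjusted p 0.19). The small CDK-binding protein CKS2 had a change of -0.39 ± 0.28 (adjusted p 0.29).

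The chromosome proteins MKI67 and TOP2A both fell. MKI67, the antigen read by the Ki-67 stain of dividing cells, lay between 5.42 and 8.86 with a median of 6.38 at 2D2, against 5.46 to 8.70 with a median of 8.03 at baseline. It was lower in 8 of 9 animals, and only BB770 was higher, by 0.84. The fitted change was -1.17 ± 0.37 (adjusted p 0.017). Dimmer MKI67 probe sets, under the brightness filter, had smaller changes in a limma fit without it: -0.45 ± 0.14 (adjusted p 0.025) and -0.35 ± 0.16 (adjusted p 0.11). TOP2A lay between 6.16 and 9.78 at 2D2, against 6.37 to 10.06 at baseline, and fell by 1.27 ± 0.43 (adjusted p 0.025), also with BB770 as the exception.

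All 5 measured genes of the kinetochore, spindle and cytokinesis fell at 2D2. The spindle pole protein ASPM fell by 1.37 ± 0.38 (adjusted p 0.0081), TPX2, which activates Aurora A on the spindle, by 1.14 ± 0.34 (adjusted p 0.011), and the cytokinesis kinesin KIF23 by 1.02 ± 0.33 (adjusted p 0.019). CENPF, a protein of the kinetochore, lay between 5.65 and 8.98 at 2D2, against 6.98 to 9.22 at baseline, and fell by 0.89 ± 0.33 (adjusted p 0.040). Its second probe set did not pass (-0.54 ± 0.21, adjusted p 0.055). DLGAP5, a microtubule-binding protein of the spindle, fell by 0.44 ± 0.12 (adjusted p 0.0059). The 9 samples at 2D2 lay between 10.27 and 11.28, against 10.53 to 11.45 at baseline. A dimmer probe set of DLGAP5, under the brightness filter with a mean of 4.39, had a change of -1.12 ± 0.34 at 2D2 and of -1.11 ± 0.36 at 1D4, so the 2 probe sets of this gene disagree in size. At 1D4 the brighter one was lower than baseline in 4 of 8 animals and higher in 4. Which of them reports the gene was not tested. Of the Aurora kinases, AURKA, which works at spindle poles, fell by 0.53 ± 0.20 (adjusted p 0.048). Its second probe set did not pass (-0.46 ± 0.20, adjusted p 0.078), and its dimmest, under the brightness filter, had a change of 0.11 ± 0.11. AURKB, which corrects chromosome attachment, had a change of -0.63 ± 0.26 (adjusted p 0.061).

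Replication genes differed less at 2D2. Of 6 licensing and replication genes only CDC6 fell, by 0.44 ± 0.15 (adjusted p 0.029). The helicase subunits MCM2, MCM3, MCM4 and MCM5 had changes of -0.25 to -0.38, with adjusted p values of 0.17 to 0.23. MCM4 lay between 7.88 and 10.08 with a median of 8.38 at 2D2, against 7.77 to 10.47 with a median of 9.13 at baseline. PCNA lay between 9.72 and 10.94 at 2D2, against 9.47 to 11.15 at baseline, and its change was -0.02, with a 95% interval of -0.27 to 0.22. RRM1, the large subunit of ribonucleotide reductase, lay between 9.76 and 10.57 at 2D2, against 9.48 to 10.84 at baseline, with a change of -0.04 and an interval of -0.21 to 0.13. TYMS had a change of -0.47 ± 0.27 (adjusted p 0.19). The median change was thus -0.32 over the 6 licensing and replication genes and -1.02 over the 5 spindle genes, and the difference between the roles was not tested.

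**Figure D2:**
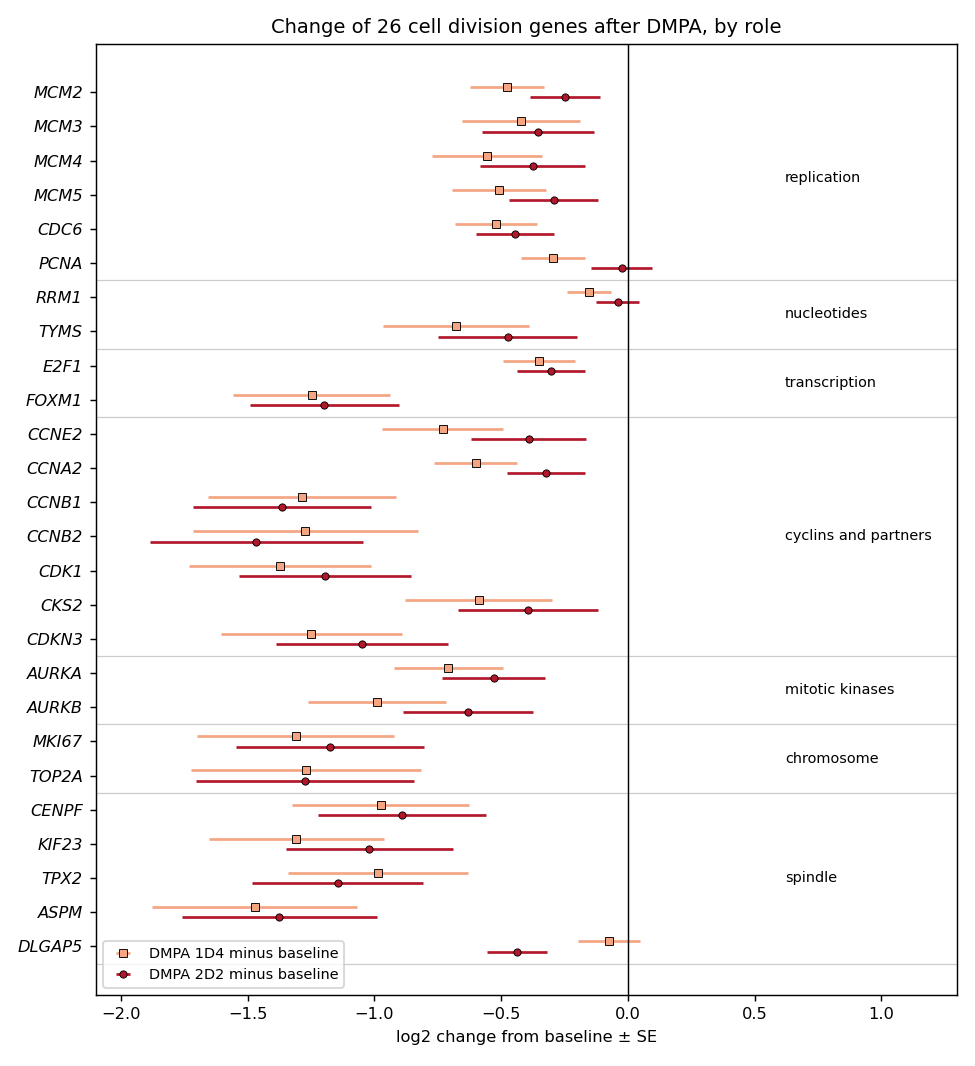
Log2 change from baseline (horizontal axis, points with SE from limma) of 26 division genes at DMPA 1D4 (squares) and DMPA 2D2 (circles), grouped by role. The points of all 26 genes lie left of zero at both times, between -1.47 and -0.02, with RRM1 and PCNA nearest to zero at 2D2.

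At the earlier time, 1D4, 18 of the 26 genes were lower than baseline and 0 higher, whereas 14.1% of all genes tested were lower and 11.7% higher. The median change was -0.72, beside 0.01 over all genes. The fall again included FOXM1 (-1.25 ± 0.31, adjusted p 0.0071), CDK1 (-1.37 ± 0.36, adjusted p 0.0091), KIF23 (-1.31 ± 0.35, adjusted p 0.0096) and AURKB (-0.99 ± 0.27, adjusted p 0.011). CCNA2 also fell, by 0.60 ± 0.16 (adjusted p 0.011), with levels of 7.47 to 8.80 at 1D4, against 7.72 to 9.24 at baseline. The replication genes MCM2 (-0.48 ± 0.15, adjusted p 0.020), MCM5 (-0.51 ± 0.19, adjusted p 0.043) and CDC6 (-0.52 ± 0.16, adjusted p 0.022) passed. MCM3, MCM4, PCNA, RRM1, TYMS, E2F1, CKS2 and DLGAP5 did not, with changes of -0.07 to -0.68. The choice of probe set mattered for the MCM genes. The dimmer of the further MCM4 probe sets above the filter passed (-0.67 ± 0.18, adjusted p 0.012). The brighter of them did not (-0.51 ± 0.21, adjusted p 0.067), nor did the second MCM5 probe set (-0.20 ± 0.13, adjusted p 0.27).

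MKI67 lay between 4.52 and 8.75 with a median of 6.43 at 1D4, against 5.46 to 8.70 at baseline, and fell by 1.31 ± 0.39 (adjusted p 0.017). The 2 highest samples, at 8.75 (BB770) and 7.58 (PPi2), were those of the dose labelled 0.5. Genes of fibroblasts and smooth muscle were higher in the same comparison, with a median change of 1.25 over 9 genes, all above zero, although 0 of them passed. With the mean of these stromal genes as a covariate 0 of the 26 division genes passed at 1D4, with a median of -0.59. Leaving out 1 animal at a time gave 6 (without BB0499) to 24 (without BB770) lower genes. Without BB405, BB0540, BB981 and PHQ1 in turn, the counts were 8, 9, 11 and 7.

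The 2 DMPA times were not separated by the test. For 2D2 minus 1D4, 0 of 26 genes and 0% of all genes passed, and 1 division gene, DLGAP5, was under an unadjusted p of 0.05. The median difference was 0.16, with the highest estimate for AURKB (0.36) and an interval for PCNA of -0.02 to 0.56.

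The part of the cycle taken as baseline changed the count. Against the follicular baseline 17 of 26 genes were lower at 2D2 (21% of all genes were lower and 22.9% higher), led by CCNB1 (-1.63 ± 0.37, adjusted p 7e-04), CDK1 (-1.49 ± 0.35) and CCNB2 (-1.85 ± 0.44). Against the luteal baseline 4 were lower (6.19% of all genes were lower and 6.27% higher): FOXM1 (-1.22 ± 0.33, adjusted p 0.014), DLGAP5, CCNB1 and CCNB2. The median changes were -0.74 and -0.48. Without the 2 low late luteal baselines of PPi2 and BB967, 11 genes were lower than the luteal baseline. Leaving out single animals gave 1 to 10 genes: 10 without BB770, 8 without PPi2, 2 without BB0540 or PHQ1, and 1 without BB0499, BB405 or BB521. With no animal block 1 gene was lower. With the GAPDH difference as a covariate 0 genes were lower than either baseline, and with the actin difference 7 were lower than the follicular and 0 than the luteal baseline.

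The changes were spread unevenly over the animals. Measured from mean baselines, the animals at dose 0.5 differed from those at 1.5 and 2.5, which overlapped each other. At 1D4 the median change over the 26 genes was 0.33 in BB770 and 0.35 in PPi2, the 2 animals sampled at the dose labelled 0.5. It lay between -1.44 and -0.96 in the 3 animals at 1.5 and between -1.49 and -0.97 in the 3 at 2.5. The middle animal was at -1.35 for dose 1.5 and at -1.12 for dose 2.5, although the largest fall, -1.49, was at 2.5. A difference between these doses was not tested. At least 24 of 26 genes were lower in each of the 6 animals at 1.5 and 2.5, whereas 24 of 26 were higher in BB770 and in PPi2. The rise in PPi2 rests on its late luteal baseline: measured from its early follicular sample alone, 24 of 26 genes were lower, with a median of -0.38.

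At 2D2 the medians were 0.82 (BB770), -0.08 (BB108) and -0.45 (PPi2) at dose 0.5. Measured from its early follicular sample alone, PPi2 was at -1.14, inside the ranges of the higher doses. The medians lay between -1.37 and -0.64 at dose 1.5 (middle animal -1.18) and between -1.69 and -0.78 at dose 2.5 (middle animal -0.88). In BB770 the division genes were high at both times: their mean level was 8.63 at 1D4 and 9.08 at 2D2, the highest of all treated samples. In BB0499 (dose 2.5) the mean at 2D2 was 6.62, the lowest of the DMPA samples.

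As a linear slope per unit of labelled dose in limma, all 26 estimates at 2D2 were below zero with a median of -0.62, beside -0.004 over all genes. None passed after adjustment (0% of all genes passed), and 16 of 26 were under an unadjusted p of 0.05, as were 1183 of 11199 genes. The smallest p values were those of MCM2 (-0.48 ± 0.15), CDK1 (-1.04 ± 0.37), CCNE2 (-0.71 ± 0.25), CENPF (-0.99 ± 0.36) and CCNA2 (-0.42 ± 0.16), with adjusted p values of 0.51 to 0.52. Without BB770 the median slope was -0.42. A slope at 1D4, added after the values were seen, had a median of -0.78 over the 26 genes. At 1D4 0 genes passed (0% of all genes), 20 of 26 were under an unadjusted p of 0.05, as were 1592 of all genes, and CCNA2 led (-0.66 ± 0.17, adjusted p 0.22). Without PPi2 that median was -0.60, and without the late luteal baselines of PPi2 and BB967 it was -0.66.

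**Figure D3:**
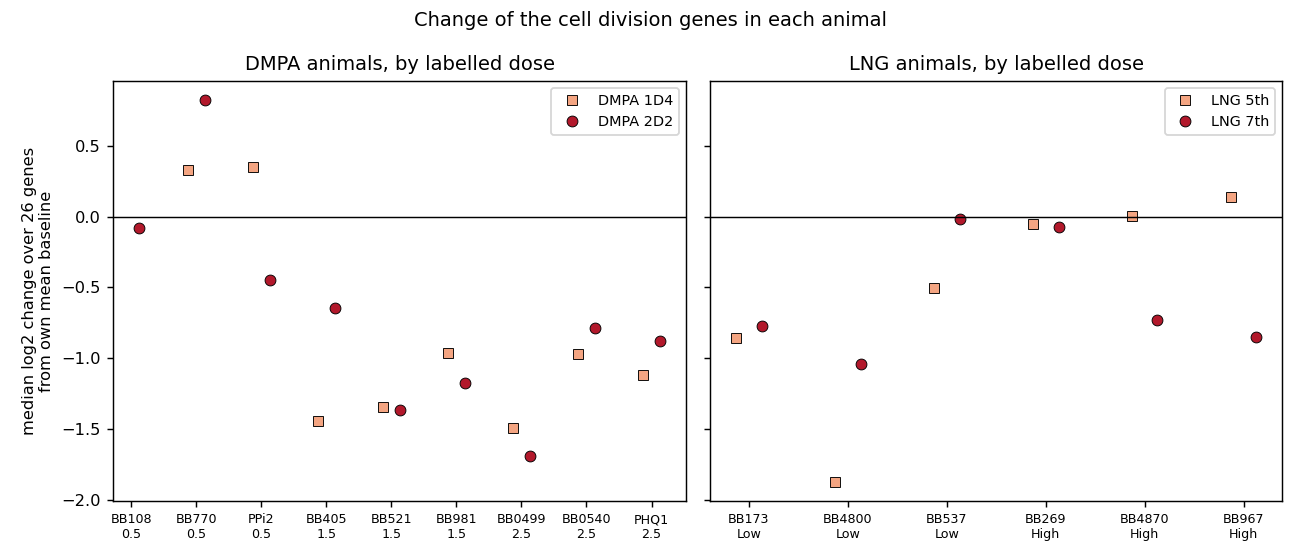
Median log2 change over 26 division genes from the animal's own mean baseline (vertical axis) in each animal, for DMPA animals ordered by labelled dose (left) and LNG animals ordered Low to High (right). Squares mark the earlier and circles the later time; the DMPA animals at 0.5 range from -0.45 to 0.82, and the 3 LNG High animals at the 5th time lie between -0.05 and 0.14.

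In the LNG arm the same genes had lower estimates, but none passed the test. At the 5th time 0 of 26 genes passed (0% of all genes), 25 of 26 estimates were below zero, 12 were under an unadjusted p of 0.05, and the median change was -0.55, beside -0.02 over all genes. At the 7th time 0 passed (0% of all genes), all 26 estimates were below zero, 11 were under an unadjusted p of 0.05, and the median was -0.62. The counts over all genes at that unadjusted p are not given here, so the 12 and 11 have no background beside them. For MKI67 the levels were 4.88 to 8.17 with a median of 6.87 at the 5th time and 4.77 to 8.03 with a median of 6.34 at the 7th, against 6.38 to 8.32 with a median of 7.89 in the 11 baselines of these animals. Treated and baseline ranges overlapped at both times. All 9 fibroblast and smooth muscle genes (medians 1.71 at the 5th and 1.50 at the 7th time) and all 8 endothelial genes (0.87 and 1.03) had estimates above zero, with 0 passing. The GAPDH 3' minus 5' difference was above baseline in 5 of 6 and 6 of 6 animals, and with it as a covariate the division gene medians were -0.16 and -0.14. The part of these measures in the LNG changes was not tested. For MKI67 alone the limma changes were -1.08 ± 0.46 (adjusted p 0.16) at the 5th time and -1.41 ± 0.46 (adjusted p 0.080) at the 7th.

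FOXM1 had changes of -1.10 ± 0.36 (adjusted p 0.081) and -0.96 ± 0.36 (adjusted p 0.11) at these times, and CDK1 one of -1.18 ± 0.42 (adjusted p 0.10) at the 7th. ASPM (-1.45 ± 0.47, adjusted p 0.078), TOP2A (-1.54 ± 0.53, adjusted p 0.092) and TYMS (-0.82 ± 0.34, adjusted p 0.15) were also among the smallest p values at the 5th time. CCNB2 (-1.38 ± 0.52, adjusted p 0.11) and AURKB (-0.84 ± 0.32, adjusted p 0.11) were among them at the 7th. The sample of BB4800 weighed on the 5th time: without that sample the median change was -0.30. Without the 2 low late luteal baselines, 4 genes at the 5th and 8 at the 7th time were lower, and without BB4870 3 genes were at the 5th. With the phases as separate groups, 2 genes were lower at each time. The shares of all genes passing in these refits are not given here, so the counts cannot be set against them. For the 7th minus the 5th time 0 of 26 genes passed (0% of all genes), with a median of -0.09 and none under an unadjusted p of 0.05.

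Low and High animals parted at the 5th time when changes were taken from each animal's mean baseline. In the High animals BB269, BB4870 and BB967 the median changes were -0.05, 0.00 and 0.14. They were -0.50, -0.86 and -1.87 in the Low animals BB537, BB173 and BB4800, so the groups of 3 did not overlap. The value of BB967 rests on its low late luteal baseline. Measured from its early follicular sample alone, its median was -0.47, close to that of BB537, with 24 of 26 genes lower. The change in the GAPDH 3' minus 5' difference did not overlap either, at 0.04, -0.24 and 0.26 in these High and 0.66, 0.67 and 1.03 in these Low animals, and its part was not tested. FOXM1 was 6.62 to 6.90 in High and 3.55 to 5.85 in Low samples. TYMS was 9.12 to 9.16 in High, against 5.12 to 8.75 in Low samples. In limma, High minus Low was above zero for all 26 genes with a median of 1.41, beside 0.03 over all genes, and 0 passed (0% of all genes), with 14 of 26 and 1826 of 11199 genes under an unadjusted p of 0.05. The smallest p values belonged to TYMS (1.98 ± 0.60, adjusted p 0.14), FOXM1 (2.09 ± 0.66, adjusted p 0.14), CCNB2 (2.88 ± 0.96, adjusted p 0.16), CCNB1 (2.40 ± 0.80, adjusted p 0.16) and ASPM (2.62 ± 0.87, adjusted p 0.16). Without BB4800 the median was 0.85, with the GAPDH difference as a covariate it was 0.49, and with the animal as a random block 4 genes were higher.

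By the 7th time the groups overlapped, with medians of -0.85 to -0.07 in High and -1.04 to -0.02 in Low animals. BB967 and BB4870 were then at -0.85 and -0.73, and the Low animal BB537 was at -0.02. The label A- was on BB4870 at both times and on BB269, BB173 and BB537 at the 7th, that is, on animals of both doses.

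The changes of the arms were not separated. The DMPA change minus the LNG change, averaged over both times of each arm, passed for 0 of 26 genes (0% of all genes), with 0 of 26 under an unadjusted p of 0.05. The median was -0.09. The smallest p was that of AURKA (-0.49, 95% interval -1.03 to 0.05, adjusted p 0.77), followed by CDKN3 (-0.61, interval -1.51 to 0.29) and KIF23 (-0.54, interval -1.41 to 0.33). Intervals of this width leave room for differences as large as the changes themselves.

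Across the untreated cycle the division genes were at their highest median in the early follicular phase. The mean level of the 26 genes had medians of 8.41 in early follicular, 8.24 in late follicular, 7.91 in early luteal and 8.10 in late luteal samples, and the ranges of all phases overlapped. MKI67 lay between 7.30 and 8.57 in early follicular (median 8.32), 7.67 and 8.32 in late follicular (median 8.01), 6.86 and 8.70 in early luteal (median 7.75) and 5.46 and 8.29 in late luteal samples (median 7.57). TOP2A followed the same order of medians, 9.55, 9.33, 9.07 and 8.77. Neighbouring phases did not differ past the threshold in limma: 0 of 26 genes and 0% of all genes passed for late minus early follicular, for early luteal minus late follicular and for late minus early luteal. At an unadjusted p of 0.05 these comparisons had 0, 0 and 1 genes, the last being MCM3 (-0.91 ± 0.36).

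Late luteal minus early follicular had a median of -0.74, 25 of 26 estimates below zero, and 18 of 26 under an unadjusted p of 0.05, as were 2688 of 11199 genes. None of the 26 passed (0.0536% of all genes were lower). The smallest p values were those of KIF23 (-1.22 ± 0.30, adjusted p 0.075), CCNB1 (-1.05 ± 0.26, adjusted p 0.078), AURKA (-0.80 ± 0.21, adjusted p 0.083), AURKB (-1.04 ± 0.28, adjusted p 0.087) and TPX2 (-0.97 ± 0.27, adjusted p 0.090). Of the 6 animals with both phases, 5 had lower division genes in the late luteal sample, with median differences of -1.45 (PPi2), -1.30 (BB967), -1.003 (BB108), -0.68 (BB0499) and -0.38 (BB0540), and BB4870 had 0.31. MKI67 was 5.46 in the late luteal and 8.40 in the early follicular sample of PPi2, and 8.29 and 8.06 in those of BB4870. The GAPDH difference was larger in the late luteal sample of the same 5 animals, for example 2.67 against 1.49 in PPi2 and 1.91 against 1.60 in BB108, and smaller in BB4870 (1.38 against 1.49). All 9 fibroblast and smooth muscle genes (median 1.25) and all 8 endothelial genes (median 0.78) had estimates above zero. The part of these measures was not tested. The median of -0.74 was -0.29 with the GAPDH difference and -0.21 with the stromal mean as a covariate, and it was -0.35 without the late luteal samples of PPi2 and BB967. With both luteal and both follicular phases averaged, 0 of 26 genes passed (0.982% of all genes were lower and 2.33% higher), with a median of -0.40 (-0.30 without those samples, 0.01 with the GAPDH covariate) and AURKA first (-0.62 ± 0.19, adjusted p 0.078). Leaving out BB405 gave 2 lower genes in each of these comparisons, and the animal as a random block gave 12 for late luteal minus early follicular and 2 for luteal minus follicular. For these refits, too, the shares of all genes passing are not given here.

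Several other measures moved with the division genes. The GAPDH 3' minus 5' difference, which grows as RNA degrades or is copied incompletely, had medians of 2.05 at 1D4, 2.25 at 2D2, 2.20 at the 5th and 2.07 at the 7th time, against 1.58 at baseline. It exceeded the animal's mean baseline in 6 of 8 animals at 1D4 and 8 of 9 at 2D2. The exceptions were BB770 at both times and PPi2 at 1D4, whose division genes were not lower than the mean baseline at those times. For PPi2 this rests on its late luteal baseline. Its GAPDH difference was 1.49 in the early follicular sample and 1.61 at 1D4, and 24 of 26 division genes were lower than in that early follicular sample. The late luteal baselines of PPi2 (2.67) and BB967 (2.10) also had large differences, while BB0540 at 2D2 had the largest, 3.98, with a division gene mean of 7.67. With this difference as a covariate the median change over the 26 genes was -0.50 at 1D4 (2 genes lower) and 0.09 at 2D2 (0 genes). With the actin difference the counts were 13 at 1D4 and 0 at 2D2. The part of RNA quality in the falls was not tested.

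Genes of the mature squamous layers moved furthest. At 2D2 14 of 15 fell (14.1% of all genes were lower), with a median change of -3.95. At 1D4 13 of 15 fell (14.1% of all genes were lower), with a median of -3.13. The mean of these 15 genes was lower than the animal's baseline in 8 of 9 animals at 2D2, by up to 5.30. BB108 at 2D2 had lost 3.33 of it with a division gene median of -0.08, so the changes differed in size in that animal. PPi2 had gained 0.80 with a division gene median of -0.45, but this gain rests on its late luteal baseline. The mature squamous mean of PPi2 was 8.59 in that baseline, 12.88 in its early follicular sample and 11.54 at 2D2. Against the early follicular sample alone, its division gene median at 2D2 was -1.14, so both measures were lower. At the LNG 5th time the mature squamous mean changed by 0.09, 0.13 and -1.61 in the High animals BB269, BB4870 and BB967 and by -3.60 to -5.31 in the Low animals.

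Most division takes place in and just above the layer of basal keratinocytes. Genes of these cells had 0 members passing as lower, with 1 of 8 estimates below zero at 2D2 and 4 of 8 at 1D4. Of the 8, 3 were higher at 2D2 (ITGB4, CAV1 and ITGA6, by 0.25 to 0.45) and 4 at 1D4, beside 17.2% and 11.7% of all genes. The mean of the 8 was above baseline in 8 of 9 and 6 of 8 animals. With the basal mean as a covariate, added after the values were seen, 5 genes at 2D2 and 3 at 1D4 passed with medians of -0.50 and -0.75. Lymphocyte genes, which could add dividing cells, had 0 of 10 passing at either time, with median changes of 0.11 at 2D2 and 0.04 at 1D4. The part of cell composition in the falls was not tested.

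**Figure D4:**
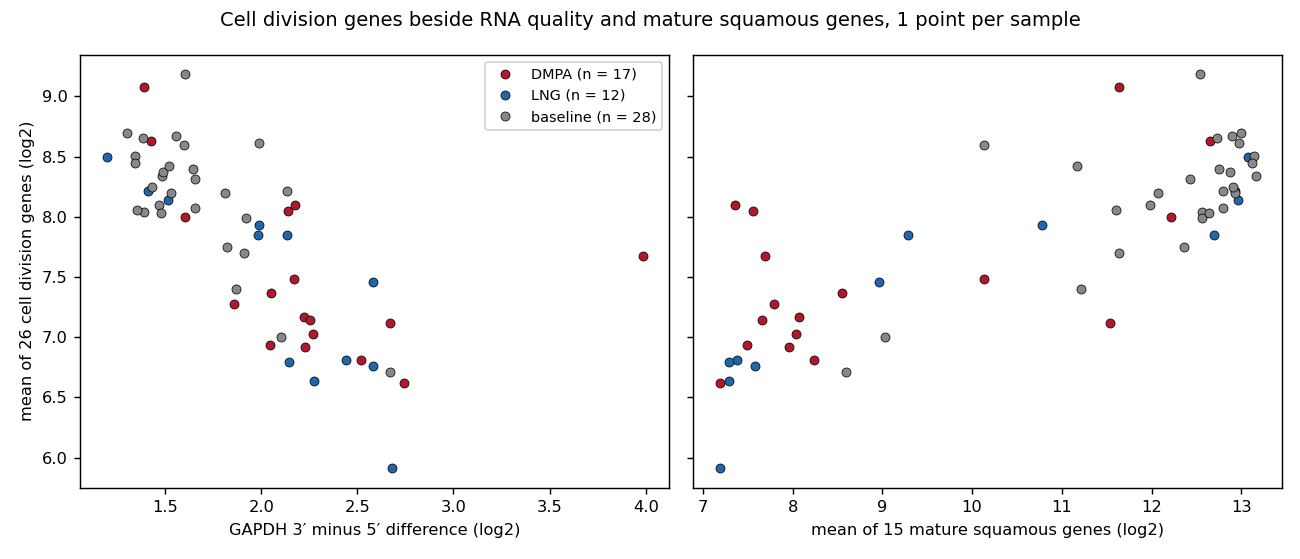
Mean level of 26 division genes (log2, vertical axis) against the GAPDH 3' minus 5' difference (left) and against the mean of 15 mature squamous genes (right), with 1 point per sample. Samples with a GAPDH difference near 1.5 have division gene means of about 8 or more, and the treated sample at a difference of 3.98 lies apart at 7.67.

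Genes of the same pathways outside the 28 were read from lists of replication, mitosis and brake genes. Of 50 other mitosis genes, 22 were lower and 1 higher at 2D2 (median -0.55), and 25 were lower and 0 higher at 1D4 (median -0.59). At 2D2 they included DEPDC1 (-2.07 ± 0.48), the phosphatase CDC25C that switches on CDK1 (-0.75 ± 0.15), the Aurora B partner CDCA8 (-1.15 ± 0.26) and GTSE1 (-0.95 ± 0.24). The gene that was higher was KIF20B, by 0.23 ± 0.09. The shares over all genes were 14.1% lower and 17.2% higher at 2D2, and 14.1% and 11.7% at 1D4. Of 31 other replication genes, 7 were lower and 3 higher at 2D2 (median -0.10), and 11 were lower and 1 higher at 1D4 (median -0.28), so the count of higher genes was under the share over all genes at both times. The licensing factor CDT1 (-0.58 ± 0.15) and the repressor-type E2F8 (-1.27 ± 0.36) fell at 2D2, while the helicase BLM (0.37 ± 0.09), the maintenance methylase DNMT1 (0.57 ± 0.18) and POLE2 (0.25 ± 0.08) rose.

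Of 30 brake and G1 genes, 8 rose and 2 fell at 2D2, with a median of 0.11. Over all genes, 17.2% were higher and 14.1% lower at 2D2. At 1D4 3 rose and 3 fell, and neither count exceeded the share over all genes (11.7% higher, 14.1% lower). Those that rose at 2D2 included CCNG1 (0.46 ± 0.11), E2F5 (0.45 ± 0.11), the pocket protein RBL2 that holds resting cells out of the cycle (0.45 ± 0.14), its partner in the repressive DREAM complex LIN52 (0.53 ± 0.17) and the G1 kinases CDK4 (0.24 ± 0.09) and CDK6 (0.40 ± 0.15). The CDK inhibitor CDKN1A (-0.75 ± 0.20) and cyclin D1, CCND1 (-0.43 ± 0.17), fell.

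Other probe sets of the same genes gave a check on the choice of the brightest. Of the 26 genes, 11 had 12 further probe sets above the filter, and all 12 changed in the same direction as the brightest at 2D2 and at 1D4. Their medians were -0.57 and -0.68, and 4 and 7 passed. For CDK1 the second probe set gave -1.31 ± 0.31 at 2D2, and for RRM1 it gave -0.01 ± 0.11. In a fit with no brightness filter, MELK, a kinase of dividing cells, had a change of -1.01 ± 0.28 (adjusted p 0.011) and CENPE, a motor that moves chromosomes, one of -0.62 ± 0.15 (adjusted p 0.0058) at 2D2. At 1D4 these were -0.999 ± 0.29 (adjusted p 0.021) for MELK and -0.63 ± 0.16 (adjusted p 0.012) for CENPE.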

How the data were processed

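Amplified RNA of the biopsies was hybridised to 58 arrays. The values deposited by the authors are on a log2 scale from 1.37 to 14.57; affy and Partek are named in the submitters' processing notes, and background correction and summarization are not given in the sources used here. They were used as deposited. The mean of an array marked duplicate and its partner counted as 1 sample, which gave 57. This pair, a late follicular sample, is the only baseline of BB537. Its arrays differed by a median of 0.79 in absolute value over the division genes. That is larger in size than the median change from baseline at any treated time. Of 52865 probe sets, 158 controls and dim probe sets (mean log2 below 5.53, the 40th percentile) were left out, which left 31624. Of all probe sets, 24969 carry 1 symbol, 361 several and 27535 none. Models were fitted with limma 3.58.1 (R 4.3.3), with the animal, as labelled, as a fixed block, and p values were adjusted by Benjamini-Hochberg over all 31624 probe sets; unadjusted p values are also from limma. Phases were compared in a fit of the 28 baseline samples. Where labels name no separate extracts, p values measure the spread between these biopsies. The fits were tested on simulated data. Levels per sample were given for the 2 brightest genes of each role and for MKI67, CDK1, FOXM1 and E2F1, and changes for the 5 genes with the smallest p in each comparison and up to 4 of each other list; other genes were chosen after their values were seen. Genes and lists were chosen with earlier results of these data known. Promoter motifs were not analysed here.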

Additional observations from a re-analysis of the deposited data

Results flagged for a closer look

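In groups of 4 to 10 samples, a sample whose gap to its nearest neighbour took an unusually large share of the group's range was found in 7 of 128 checks, and chance gives about 1 in 20 (5%). At 1D4 BB770 was highest for PCNA (10.4), MCM4 (9.48) and TYMS (9.88). BB4800 was lowest at the LNG 5th time for PCNA (8.84) and TYMS (5.12). In the early luteal baseline BB405 was highest for MCM4 (10.5), and in the early follicular baseline PHQ1 was lowest for MKI67 (7.30).

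At 1D4 every animal at doses 1.5 and 2.5 was lower than its baseline and both animals at 0.5 were higher, for the mean of the 26 genes (a difference between the doses of -1.67) and for 13 of the named genes. The differences were -2.78 for MKI67, -2.76 for CDK1, -2.18 for FOXM1, -0.998 for E2F1, -0.71 for PCNA, -1.09 for MCM4, -0.55 for RRM1, -1.44 for TYMS, -1.78 for CKS2, -1.20 for CCNA2, -1.79 for AURKB, -2.79 for TOP2A and -2.24 for CENPF. At 2D2 this held for CCNA2 (-0.85). In PPi2 the direction rests on its low late luteal baseline: against its early follicular sample alone, 24 of 26 genes were lower at 1D4, with a mean of -0.37 and MKI67 at -0.81, so the split at 1D4 does not hold with that baseline. These differences were not tested as such, and the limma slopes over dose passed for 0 genes. At the LNG 5th time CKS2 was above baseline in all High and below it in all Low animals, a difference of 1.41 between the mean changes. The limma estimate for High minus Low was 1.49 ± 0.65 (SE), with an adjusted p of 0.28.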

How the results depend on the processing

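With the GAPDH difference as a covariate 0 of 26 genes passed at DMPA 2D2 (median 0.091, with ASPM at 0.093), 2 at 1D4, and 0 at 2D2 against the follicular and the luteal baseline, and the LNG 7th median was -0.14. With the actin difference the counts were 0 at 2D2, 7 against follicular and 0 against luteal baseline. With the stromal mean 0 passed at 1D4. With the basal keratinocyte mean, added after the values were seen, 5 passed at 2D2, 3 at 1D4 and 2 against luteal baseline. A filter at the 60th percentile left 19 genes to test, of which 8 passed at 2D2 and 11 against follicular baseline. The labels tie samples to animals, which is the pairing. With no replicate block, that is without the animal, 10 passed at 2D2, 14 at 1D4, 1 against luteal baseline and 2 for LNG High minus Low. With the animal as a random block 4 passed for High minus Low, 1 at LNG 5th, 12 for late luteal minus early follicular and 2 for luteal minus follicular. With baseline phases as separate groups 2 passed at LNG 5th and 2 at 7th. Without the late luteal samples of PPi2 and BB967, added after the values were seen, 11 passed against luteal baseline, 4 at LNG 5th and 8 at 7th. Leaving out 1 animal at a time gave 7 to 19 genes at 2D2 (medians -0.69 to -0.44), 6 to 24 at 1D4, 14 to 20 against follicular and 1 to 10 against luteal baseline, 0 to 3 at LNG 5th, 0 to 1 for High minus Low, 0 to 2 for late luteal minus early follicular and 0 to 2 for luteal minus follicular. The causes were not tested. The shares of all genes passing in these fits are not given here, so the counts show only how the calls depend on the setting. Over the genes named with their changes, 658 repeats stayed on the same side of the threshold, 30 crossed to pass, 25 no longer passed, and 1, for ASPM, turned in sign. The number of arrays limits the precision. Leaving out probe sets under the filter bears on MELK, CENPE, the second DLGAP5 probe set, the dimmest AURKA probe set and the dimmer MKI67 probe sets.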
